A study of Mus musculus with 9 samples.

Results

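Cytokine receptors without kinase activity of their own signal through Janus kinases (JAKs) and through signal transducers and activators of transcription (STATs). The genes described here were 6 STAT genes (Stat2, Stat3, Stat4, Stat5a, Stat5b and Stat6) and 3 JAK genes (Jak1, Jak2 and Tyk2). They were chosen by name. The rows of both deposited tables whose Ensembl identifiers map to these symbols were taken, which gave 9 of 55655 rows. Other members of the families are not analysed here.

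A bound cytokine brings its receptor chains together, and the JAKs on their tails phosphorylate one another and the receptor. STAT proteins dock there, are phosphorylated, pair up and enter the nucleus, where they switch on target genes, some of which encode inhibitors of the same pathway. In macrophages, interferons act through this pathway to set up the inflammatory and antiviral state, IL-10 restrains it through Stat3, and IL-4 drives another state through Stat6. RNA levels, which are what was measured here, do not show phosphorylation.

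The cells were bone marrow-derived macrophages (BMDMs) from the femurs and tibias of wild-type C57BL/6 mice aged 6 to 8 weeks, and all of them were matured for 7 days with 10 ng/mL M-CSF, a macrophage growth factor. M0 cells received no LPS or IFN-γ. M1 cells received LPS, an endotoxin of bacterial origin, at 100 ng/mL with IFN-γ at 20 ng/mL, and M1 + PBM cells received the same agents together with photobiomodulation (PBM), a near-infrared laser at 6 mW/cm2 for 7 min every 12 h; the study compared these groups 12 h after the first irradiation to ask how the light acts on inflammatory macrophages. Each group had 3 libraries. Control cells were kept in the same dark box without the laser, and the time at which M0 RNA was taken is not given in the sources used here. The study describes its sequencing of M1 and M1 + PBM cells as 3 independent repeats. Nothing says that the 3 libraries of a group came from separate mice. The p-values therefore measure the spread between these libraries, which may be technical in part.

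Values are FPKM, fragments counted per unit of transcript length and of sequencing depth, so levels of different genes can be set side by side per length, and means are given ± SD with n = 3 libraries a group. The M0 values come from a separate table, which may have been normalized separately. M0 was therefore compared by description and without a test, and its table and its state cannot be told apart. The depth estimated from the steps between low FPKM values was 30930000 to 34680000 fragments in M0, 31390000 to 39700000 in M1 and 34740000 to 42150000 in M1 + PBM. M0 replicate 3 stood apart from the other M0 libraries. It held 34.5 FPKM of Socs3, a target of cytokine signalling, against 0.707 and 0.372, and the 14 interferon target genes listed for Stat2 summed to 289.6 FPKM against a lowest value of 31.0. The 6 stromal cell markers also summed highest there, at 187 FPKM against a lowest of 5.48 in M0, with Col1a1, a collagen gene, at 123 FPKM against 4.44 and 3.44. The part of these differences in the M0 values below was not tested. For the STAT and JAK genes, results that rest on this library are given with and without it.

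The labelled cell type was met by its markers. All 6 macrophage markers were expressed, with sums of 6698 to 10084 FPKM in M0, 4772 to 7869 in M1 and 4963 to 6673 in M1 + PBM. The 9 lymphoid markers summed to at most 0.925 FPKM in any library, and Gzma was listed at 0 in all of them. The 6 dendritic cell markers summed to at most 1.23 FPKM, with Flt3 listed at 0 throughout. The 7 neutrophil markers summed to 1.44 to 2.39 FPKM in M0, 8.94 to 28.1 in M1 and 6.44 to 15.0 in M1 + PBM, mostly from S100a8, while Ly6g and S100a9 were listed at 0. All 6 M1 markers were higher in M1 than in M0 without overlap, where 15.3% of all rows compared were higher. With PBM 3 of them (Nos2, Cd86 and Il1b) fell at an unadjusted limma p of at most 0.05, where 1.45% of all rows passed lower. Their adjusted limma p was 0.90. Nos2 was among the genes that the study singled out in these samples, so its direction is not independent evidence. In the M1 and M1 + PBM libraries the stromal markers summed to 12.7 to 14.4 and to 6.22 to 27.2 FPKM.

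The largest differences between resting and inflammatory macrophages were those of Jak2, Stat2 and Stat3, which had mean levels 10.6, 9.59 and 3.88 times as high in M1 as in M0. Tyk2, Stat5a and Jak1 differed less, Stat6 and Stat5b were near or below their M0 levels, and Stat4 was close to 0. Ratios to M0, here and below, are in FPKM as deposited and depend on that scale. Between M1 and M1 + PBM the groups overlapped for each of the 9 genes, and none of the 8 that could be tested passed at an unadjusted p of 0.05. In RNA from whole cultures, fewer cells of a type and less RNA per cell cannot be told apart.

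**Figure D1:**
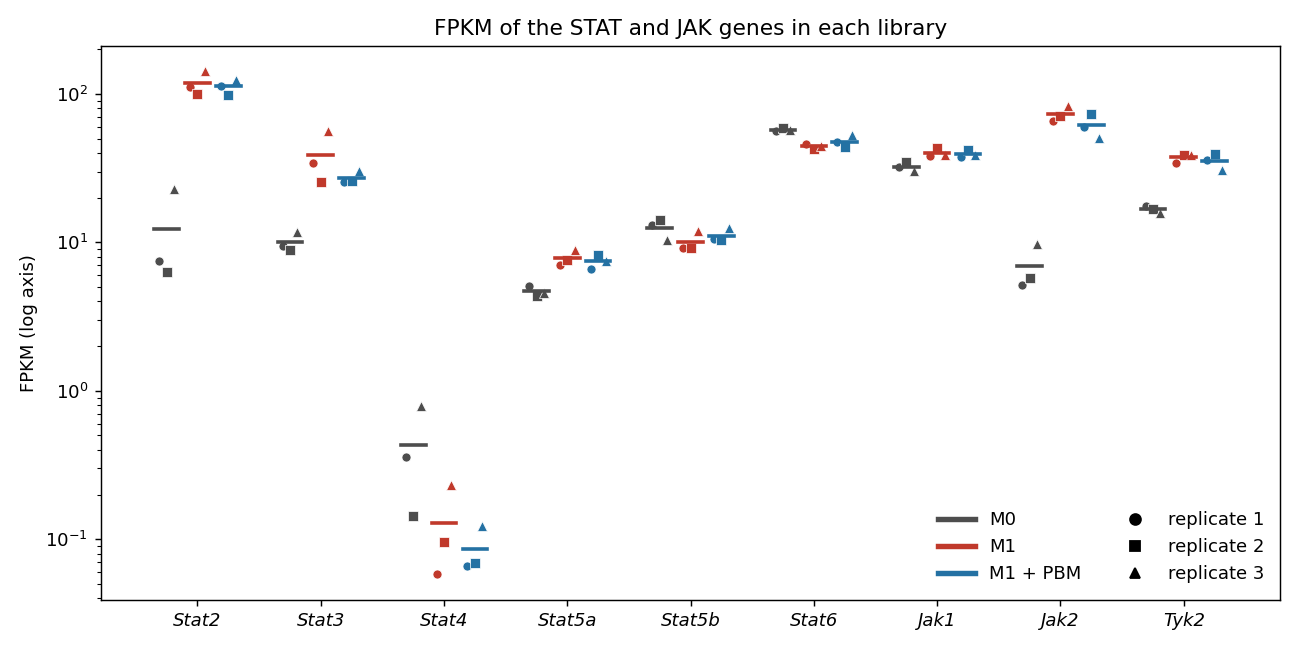
FPKM of each STAT and JAK gene (vertical axis, logarithmic) in each library of M0 (grey), M1 (red) and M1 + PBM (blue), with the replicate number given by the symbol and the mean of 3 libraries by the bar. All M1 and M1 + PBM points of Stat2 and Jak2 lie above their M0 points, and the red and blue points of every gene overlap.

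Among the kinases, Jak2 serves the IFN-γ receptor and the receptors of GM-CSF and related growth factors. Its FPKM was 5.19, 5.73 and 9.75 in M0 replicates 1 to 3, 65.7, 71.5 and 82.7 in M1, and 60.05, 73.8 and 50.9 in M1 + PBM. Every library with LPS and IFN-γ was above every M0 library, and replicate 3 was the highest within M0 and the lowest within M1 + PBM. The mean was 6.89 ± 2.49 in M0, 73.3 ± 8.63 in M1 and 61.6 ± 11.5 in M1 + PBM. The M1 level was 10.6 times the M0 level, or 13.4 times without M0 replicate 3, and the M1 + PBM level was 8.94 or 11.3 times.

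Tyk2, the kinase of the type I interferon, IL-10 and IL-12 receptors, stood at 17.5, 16.9 and 15.9 FPKM in M0, at 34.1, 39.1 and 39.0 in M1 and at 35.9, 39.4 and 30.6 in M1 + PBM. The M0 libraries were all below the other 6, and the mean was 16.7 ± 0.81 in M0, 37.4 ± 2.83 in M1 and 35.3 ± 4.46 in M1 + PBM. This is 2.24 times the M0 level in M1 and 2.11 times in M1 + PBM. An annotated antisense transcript, 1700084C06Rik, overlaps 554 exonic bases of Tyk2, which is 8.07% of them, and whether counting used the strand of the libraries is not stated.

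Jak1, the kinase shared by interferon, IL-6, IL-10 and IL-4 receptors, varied least among the kinases. It measured 32.2, 34.8 and 30.1 FPKM in M0, 38.4, 43.4 and 38.9 in M1, and 37.5, 42.1 and 39.0 in M1 + PBM. The groups with LPS and IFN-γ did not overlap M0, and the ratio of means was 1.24 in M1 and 1.22 in M1 + PBM. These ratios depend on the scale. In FPKM as deposited, the median log2 difference from M0 over 13915 rows was -0.34 in M1 and -0.27 in M1 + PBM, while that of Jak1 was 0.31 and 0.28. Jak1 was above Jak2 in every M0 library and below it in every other library. The ratio of Jak2 to Jak1 was 0.161, 0.165 and 0.324 in the M0 libraries and lay between 1.31 and 2.13 in the other 6.

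Stat2 pairs with Irf9 downstream of type I interferon and binds interferon-stimulated response elements. It had 7.49, 6.28 and 23.0 FPKM in M0, 111, 99.4 and 143 in M1, and 114, 99.1 and 125 in M1 + PBM. The M0 libraries lay far below the rest, and M0 replicate 3 was 3.35 times the mean of the other M0 libraries. The M1 mean of 118 ± 22.3 was 9.59 times the M0 mean of 12.3 ± 9.35, or 17.1 times without M0 replicate 3. With PBM the mean was 113 ± 13.0, and the ratio to M0 was 9.17, or 16.3 without that library.

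Stat3 carries the signals of IL-6 and IL-10. Its FPKM was 9.40, 8.91 and 11.7 in M0, 34.0, 25.7 and 56.7 in M1, and 25.5, 26.1 and 30.0 in M1 + PBM. All M0 libraries were below all others, and the M1 libraries were the most scattered, replicate 3 being 1.90 times the mean of replicates 1 and 2. The mean was 10.0 ± 1.49 in M0, 38.8 ± 16.0 in M1 and 27.2 ± 2.48 in M1 + PBM. The M1 ratio to M0 was 3.88, or 4.24 without M0 replicate 3, and that of M1 + PBM was 2.72 or 2.97.

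The promoters of these 3 genes are shown because they had the largest differences from M0, and the second promoter of Stat4 because it also held a searched motif although the gene was near 0. Each window runs from 250 bases before to 50 bases after a start site in RefSeq (GRCm38.p6), is written along the gene's strand, and has motif matches in capitals.
Stat2, chr10:128270248-128270547 (+ strand): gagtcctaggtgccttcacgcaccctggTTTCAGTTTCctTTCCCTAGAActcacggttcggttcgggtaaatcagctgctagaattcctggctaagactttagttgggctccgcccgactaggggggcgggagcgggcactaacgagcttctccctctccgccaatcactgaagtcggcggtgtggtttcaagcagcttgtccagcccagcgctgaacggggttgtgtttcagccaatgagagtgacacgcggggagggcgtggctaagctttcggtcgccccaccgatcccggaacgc
Jak2, chr19:29251553-29251852 (+ strand): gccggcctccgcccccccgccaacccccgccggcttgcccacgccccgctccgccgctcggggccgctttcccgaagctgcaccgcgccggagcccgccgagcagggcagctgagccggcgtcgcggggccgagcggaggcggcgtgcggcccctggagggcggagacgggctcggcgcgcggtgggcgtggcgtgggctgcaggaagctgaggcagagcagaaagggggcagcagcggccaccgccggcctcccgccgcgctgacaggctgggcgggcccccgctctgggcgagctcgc
Stat3, chr11:100939491-100939790 (- strand): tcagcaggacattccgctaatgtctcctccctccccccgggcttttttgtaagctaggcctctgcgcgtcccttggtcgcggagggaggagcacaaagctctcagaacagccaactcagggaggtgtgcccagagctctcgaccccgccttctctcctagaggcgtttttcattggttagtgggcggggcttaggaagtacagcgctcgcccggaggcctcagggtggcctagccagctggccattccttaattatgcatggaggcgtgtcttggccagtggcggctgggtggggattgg
Stat4, chr1:52007990-52008289 (+ strand): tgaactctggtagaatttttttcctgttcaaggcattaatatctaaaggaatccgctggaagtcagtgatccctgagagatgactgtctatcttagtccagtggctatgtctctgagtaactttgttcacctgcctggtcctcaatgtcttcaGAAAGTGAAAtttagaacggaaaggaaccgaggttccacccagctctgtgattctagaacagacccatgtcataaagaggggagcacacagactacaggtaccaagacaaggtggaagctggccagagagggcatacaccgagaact
The motifs, searched on both strands, were TTC and GAA with 3 bases between them, which most STAT dimers bind, the same letters with 4 bases between them, the wider spacing that Stat6 prefers, and GAAA and GAAA with 2 bases between them, the core of the interferon-stimulated response element. Of all 32851 mouse promoter windows of this length, 8.3%, 6.95% and 3.44% held them. Of the 12 windows found for the 9 genes, 2 held a match. The share of all windows with any of these motifs was not computed, so this count has no background beside it. In Stat2 the response element core TTTCAGTTTC lay at bases -222 to -213 and TTCCCTAGAA, the wider spacing, at -210 to -201, where -1 is the base before the start. In Stat4 the core GAAAGTGAAA lay at -97 to -88. The windows of Jak2 and Stat3 held none of these letters, which says nothing of sites elsewhere.

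Stat6, the factor of IL-4 and IL-13, was the most abundant of the 9 genes in M0 and had the tightest replicates there. It measured 56.1, 58.8 and 57.1 FPKM in M0, 46.2, 42.5 and 44.8 in M1, and 47.1, 43.6 and 52.6 in M1 + PBM. Every M0 library was above the other 6. The means were 57.3 ± 1.34, 44.5 ± 1.86 and 47.7 ± 4.52, so that M0 stood 1.29 times above M1 and 1.20 times above M1 + PBM. This direction depends on the scale. Over 13915 rows the median log2 difference of M1 from M0 was -0.34, and that of M1 + PBM from M0 was -0.27, both in FPKM as deposited. Median-of-ratios scaling moved these medians to -0.0073 and -0.0090, and the log2 difference of Stat6 from -0.36 to 0.072 in M1 and from -0.26 to 0.077 in M1 + PBM.

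Stat5a and Stat5b, neighbouring and closely alike genes, serve GM-CSF and other growth factor receptors. Stat5a had 5.11, 4.33 and 4.58 FPKM in M0, 7.05, 7.55 and 8.90 in M1, and 6.61, 8.24 and 7.54 in M1 + PBM. Its M0 libraries were all below the rest, at 4.67 ± 0.39 against 7.83 ± 0.96 and 7.46 ± 0.82, which is 1.68 and 1.60 times the M0 mean. Stat5b had 13.1, 14.1 and 10.4 FPKM in M0, 9.17, 9.17 and 12.0 in M1, and 10.5, 10.3 and 12.4 in M1 + PBM, so all 3 groups overlapped. The overlap with M0 rested on M0 replicate 3, as M0 replicates 1 and 2 were above every M1 and M1 + PBM library. Without M0 replicate 3 the ratio of means to M0 was 0.743 in M1 and 0.814 in M1 + PBM, against 0.806 and 0.883 with it. The log2 difference of Stat5b from M0 was -0.29 in M1 and -0.16 in M1 + PBM as deposited, and 0.12 and 0.16 after median-of-ratios scaling. The ratio of Stat5b to Stat5a was 2.27 to 3.26 in the M0 libraries, 1.21 to 1.35 in M1 and 1.25 to 1.65 in M1 + PBM. The transcripts of these genes share 608 windows of 50 bases, which is 15.8% of those of Stat5a and 11.8% of those of Stat5b, and how fragments from them were divided is not given in the sources used here.

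A likeness also appears in their promoters. The second window of each gene is shown because the longest run of bases that the Stat5a and Stat5b windows share, in capitals, lies there.
Stat5a, chr11:100860234-100860533 (+ strand): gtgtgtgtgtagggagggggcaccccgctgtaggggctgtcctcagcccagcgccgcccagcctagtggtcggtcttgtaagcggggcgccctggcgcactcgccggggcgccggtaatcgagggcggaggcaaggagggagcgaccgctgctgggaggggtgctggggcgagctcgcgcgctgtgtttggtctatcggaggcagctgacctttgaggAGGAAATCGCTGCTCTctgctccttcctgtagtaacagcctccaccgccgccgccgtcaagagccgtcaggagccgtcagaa
Stat5b, chr11:100822521-100822820 (- strand): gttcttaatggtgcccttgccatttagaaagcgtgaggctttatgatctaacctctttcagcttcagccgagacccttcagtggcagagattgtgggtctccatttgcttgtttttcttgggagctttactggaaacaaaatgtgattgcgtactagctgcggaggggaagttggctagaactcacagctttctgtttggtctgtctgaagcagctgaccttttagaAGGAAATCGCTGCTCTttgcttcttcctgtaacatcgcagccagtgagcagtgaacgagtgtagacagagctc
The run has 16 bases, lies shortly before the start in both windows, and was in no other of the 32851 windows. None of the 3 motifs was in these windows or in the other window of either gene.

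Stat4, the factor of IL-12, was at the bottom of the order in each group. It had 0.359, 0.143 and 0.785 FPKM in M0, 0.058, 0.095 and 0.232 in M1, and 0.066, 0.069 and 0.123 in M1 + PBM. The M0 and M1 libraries overlapped, and those of M1 + PBM were all below M0, with a mean 0.201 times as high, or 0.343 times without M0 replicate 3. At the estimated depth these levels rest on at most 6.85 to 21.7 fragments in an M1 library, 6.87 to 13.6 in an M1 + PBM library and 14.5 to 81.2 in an M0 library. Another annotated transcript, Gm28177, lies on the same strand and covers 26.7% of the exonic bases of Stat4, so these fragments cannot be given to either with certainty.

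Counted together, 6 of the 9 genes were higher in M1 than in M0 without overlap of the libraries and 1, Stat6, was lower. Over all 13593 rows that reached 1 FPKM in 3 or more of the 6 libraries compared, 15.3% were higher and 51.5% lower without overlap. For M1 + PBM and M0, 6 genes were higher and 2, Stat6 and Stat4, lower, against 15.4% higher and 47.2% lower of 13583 rows. Stat4 was below 1 FPKM in every library and so is not among these rows. The 6 higher genes were Stat2, Stat3, Stat5a, Jak1, Jak2 and Tyk2 in either case, and both counts use the same M0 libraries. With median-of-ratios scaling, 6 genes were again higher and no gene was lower without overlap in either comparison. On that scale 28.9% of 13915 rows were higher and 28.1% lower in M1, and 27.4% and 26.9% in M1 + PBM.

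**Figure D2:**
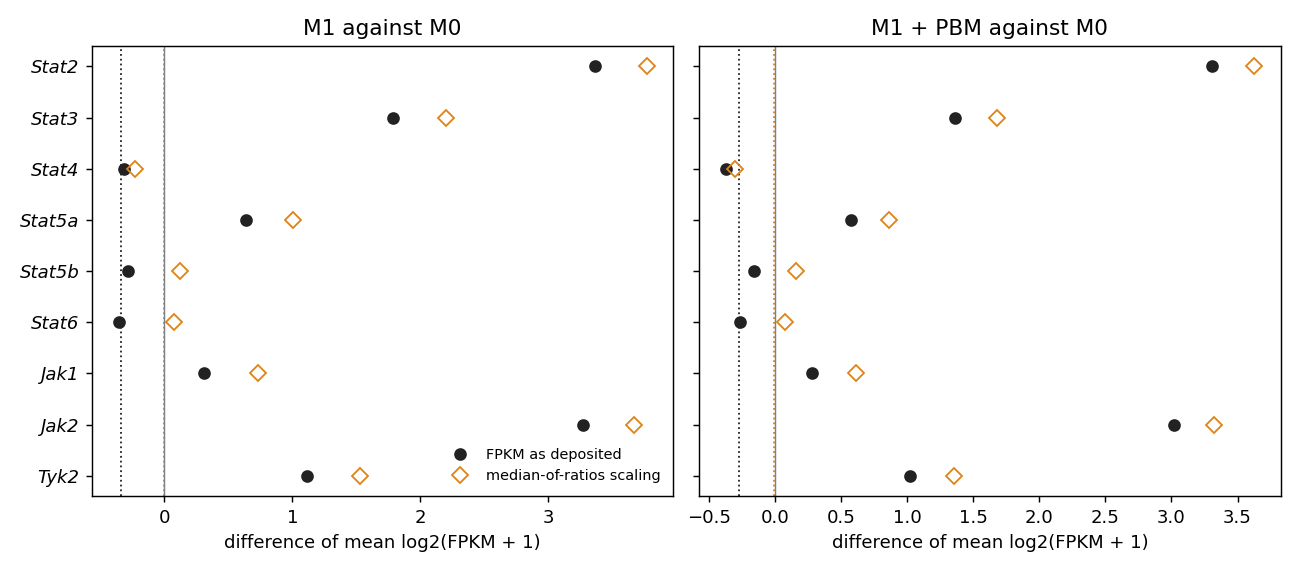
Difference of mean log2(FPKM + 1) from M0 for each gene in M1 (left) and M1 + PBM (right), in FPKM as deposited (filled circles) and after median-of-ratios scaling (open diamonds), with dotted lines at the median over all 13915 rows on each scale. Stat2, Jak2 and Stat3 lie farthest to the right, and Stat6 and Stat5b cross 0 with the scaling.

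The order of levels differed between resting and inflammatory cells. In M0 the order was Stat6, Jak1, Tyk2, Stat5b, Stat2, Stat3, Jak2, Stat5a and Stat4, where the neighbours from Stat5b to Jak2 overlapped. Without M0 replicate 3 the M0 mean of Stat2 was 6.88 FPKM, below that of Stat3 at 9.16. In M1 the order was Stat2, Jak2, Stat6, Jak1, Stat3, Tyk2, Stat5b, Stat5a and Stat4, where the neighbours from Stat6 to Tyk2 overlapped. In M1 + PBM it was Stat2, Jak2, Stat6, Jak1, Tyk2, Stat3, Stat5b, Stat5a and Stat4, where Jak2 overlapped Stat6 and Jak1 overlapped Tyk2. Stat3 thus ranked below Tyk2 with PBM, at 25.5 to 30.0 FPKM against 30.6 to 39.4, while the ranges of these genes overlapped in M1. The higher rank of Stat3 in M1 rested on replicate 3, at 56.7 FPKM against 39.0. In M1 replicates 1 and 2 Stat3 was also below Tyk2.

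The make-up of the STAT pool differed accordingly. The 6 STAT genes summed to 97.2 ± 8.98 FPKM in M0, 219 ± 41.6 in M1 and 206 ± 20.3 in M1 + PBM. Stat6 made up 61.3%, 63.5% and 53.0% of this sum in the M0 libraries, 22.3%, 23.0% and 16.9% in M1, and 23.2%, 23.3% and 23.1% in M1 + PBM. Stat2 made up 8.18%, 6.78% and 21.4% in M0 and lay between 52.9% and 55.9% in the other 6 libraries. The larger part of the M0 pool was therefore the IL-4 factor and that of the other groups the interferon factor. A share within a library does not depend on its scaling.

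The 3 kinases summed to 56.0 ± 1.28 FPKM in M0, 151 ± 11.5 in M1 and 136 ± 17.6 in M1 + PBM. Jak2 made up 9.45%, 9.98% and 17.5% of this sum in M0. Its share was 47.6%, 46.4% and 51.5% in M1 and 45.0%, 47.5% and 42.3% in M1 + PBM, so the last groups overlapped.

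**Figure D3:**
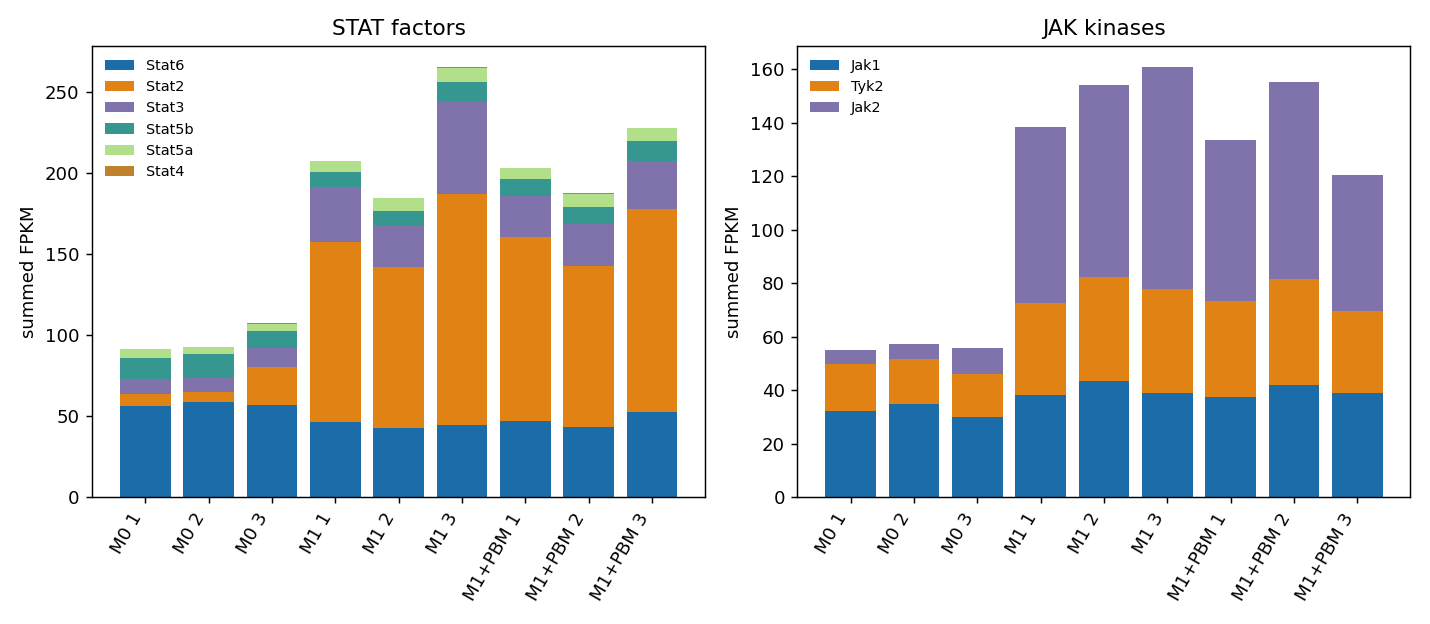
Summed FPKM of the 6 STAT genes (left) and the 3 JAK genes (right) in each library, stacked by gene. Stat6 is the tallest part of the STAT bars in M0 and Stat2 in the other 6 libraries, and Jak2 grows from at most 17.5% of the JAK bar in M0 to at least 42.3%.

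M1 + PBM was then compared with M1; both stand in 1 table and could be tested. The test was limma's moderated test on log2(FPKM + 1) over the 12238 rows that reached 1 FPKM in 3 or more of the 6 libraries, and a positive log2 fold change means higher with PBM. It understates the change of genes with low FPKM. Stat4 was below this level, so 8 genes were tested. Of these, 6 had a lower and 2 a higher estimate with PBM, Stat2 turning to 0.020 after quantile normalization. Over all rows, 34.4% had a lower estimate. The median of the 8 genes was -0.057 on the log2 scale against 0.058 over all rows. At an unadjusted p of at most 0.05, 0 of the 8 passed, also with the replicate number as a block, while 4.44% of all rows did, 1.45% lower and 2.99% higher. At the thresholds of the study's methods, an unadjusted p of at most 0.05 with a log2 fold change of at least 1 in size, 0.261% of rows passed and none of the 8. The adjusted p of limma was under 0.05 for 0.00817% of rows, which is 1 assembled locus without a gene name, and lay between 0.90 and 0.97 for the 8 genes.

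Stat3 had the largest estimate, a log2 fold change of -0.43 with an SE of 0.27 and a 95% interval of -1.09 to 0.24 (limma, unadjusted p = 0.169, adjusted p = 0.90). The difference between same-numbered libraries was -0.40, 0.021 and -0.89, so replicate 2 did not share the direction. Leaving out M1 replicate 2 gave -0.68 at an unadjusted limma p of 0.030, whereas leaving out M1 replicate 3 brought the estimate to -0.12. A lower level of Stat3 with PBM was therefore not separable from the spread between the M1 libraries.

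Jak2 had a log2 fold change of -0.26 with an SE of 0.16 and a 95% interval of -0.65 to 0.14 (limma, unadjusted p = 0.165, adjusted p = 0.90). The differences between same-numbered libraries were -0.13, 0.045 and -0.69, and without M1 + PBM replicate 3 the estimate was -0.13. Without M1 + PBM replicate 2 the estimate was -0.39 at an unadjusted limma p of 0.045.

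The intervals of the other 6 genes were narrower than that of Stat3 and all held 0. Stat2 had a log2 fold change of -0.054 (95% interval -0.45 to 0.35) and Tyk2 one of -0.087 (-0.39 to 0.22). For Stat5a the value was -0.061 (-0.36 to 0.24), and for Jak1 it was -0.025 (-0.27 to 0.22). Stat5b and Stat6 had the only higher estimates, 0.13 (-0.20 to 0.45) and 0.10 (-0.16 to 0.35). Their unadjusted limma p lay between 0.391 and 0.812. In the exact two-sided permutation test the p of the 9 genes lay between 0.3 and 0.9, and 3 libraries against 3 cannot give less than 0.1. Libraries of M1 + PBM and M1 did not overlap in 8.51% of all rows higher and 2.52% lower, and in none of the 8 genes tested.

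**Figure D4:**
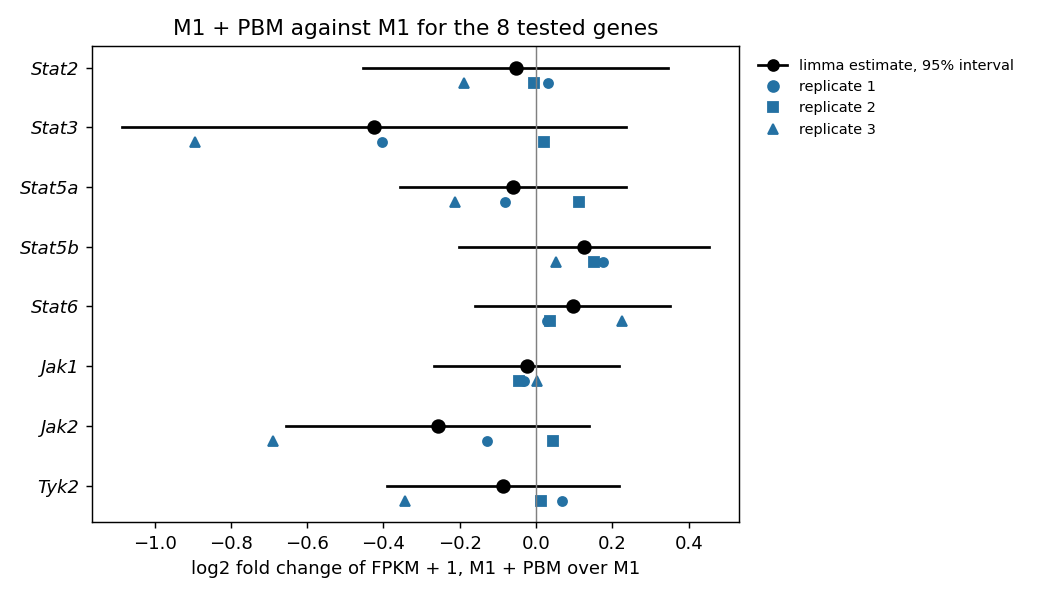
Log2 fold change of M1 + PBM over M1 for the 8 tested genes, with limma's estimate and 95% interval in black and the difference between same-numbered libraries in blue. Every interval holds 0, and replicate 3 lies farthest to the left of the replicates for every gene but Stat6 and Jak1.

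The other genes of the pathway were taken from lists. Of 17 ligand genes, 11 were higher and 1, Il4, was lower in M1 than in M0 without overlap. Of all rows that reached 1 FPKM in 3 or more of those libraries, 15.3% were higher and 51.5% lower. The list counts against M0, here and below, also include genes under that minimum, Il4 among them. For PBM, 9 ligand genes could be tested. All 9 had a lower estimate, save for Ebi3 at 0.018 after quantile normalization, where 34.4% of all rows were lower. Their median was -0.84 on the log2 scale against 0.058 over all rows. At an unadjusted p of at most 0.05, 3 passed, all lower, where 1.45% of all rows passed lower. With the replicate block 5 passed, and 988 of 12238 rows passed in either direction against 543 without it. Il6, the cytokine upstream of Stat3, fell from 20.6 ± 5.27 FPKM in M1 to 3.97 ± 3.09 in M1 + PBM, a log2 fold change of -2.29 with an SE of 0.47 (limma, unadjusted p = 0.0023, adjusted p = 0.90). In M0 it had 0.028, 0.036 and 0.848 FPKM, with a mean of 0.304. Csf3, the granulocyte growth factor, had 45.6, 3.60 and 21.1 FPKM in M1 and 3.09, 3.77 and 1.71 in M1 + PBM, so the groups overlapped, although the test passed (log2 fold change -2.16, limma, unadjusted p = 0.033, adjusted p = 0.90). Osm, a relative of Il6, fell from 3.42 ± 1.63 to 1.76 ± 0.18 FPKM (log2 fold change -0.62, limma, unadjusted p = 0.042, adjusted p = 0.90). The call of Csf3 was lost on leaving out any of M1 replicates 1 and 3 and M1 + PBM replicates 1 to 3, and that of Osm on leaving out any of the M1 + PBM libraries or with no minimum FPKM. Without M1 replicate 1 the log2 fold change was -1.43 for Csf3 and -0.34 for Osm, and without M1 replicate 2 it was -3.10 for Csf3. Il6 was among the genes that the study singled out in these samples, so its direction is not independent evidence. Ebi3, a subunit of IL-27, was the most abundant ligand gene, with 102 ± 51.4 FPKM in M1 and 93.6 ± 22.3 in M1 + PBM.

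Of 24 receptor genes, 11 were higher and 7 lower in M1 than in M0 without overlap, against 15.3% higher and 51.5% lower of all rows. For PBM, 20 were tested, of which 10 had a lower and 10 a higher estimate, and the median log2 fold change was -0.0071. Over all rows, 34.4% had a lower estimate and the median was 0.058. Of these 20, only Ifngr1, the ligand-binding chain of the IFN-γ receptor, passed at an unadjusted p of at most 0.05. That is near the share of all rows that passed, 4.44%. It had 19.8, 22.4 and 25.3 FPKM in M0, 8.73, 7.42 and 7.57 in M1, and 12.4, 10.8 and 13.9 in M1 + PBM. None of these groups overlapped, and PBM lay between M1 and M0. The log2 fold change was 0.58 with an SE of 0.12 (limma, unadjusted p = 0.0026, adjusted p = 0.90), and it kept its side of the threshold without any single library. With the replicate block, 3 receptor genes passed, beside 988 of all 12238 rows. Csf2rb2, a chain of the IL-3 receptor, had the highest mean over the 9 libraries, with 98.7 ± 27.0 FPKM in M1 and 96.4 ± 1.47 in M1 + PBM, although Csf3r, the receptor of Csf3, was above it in M1 at 117 ± 17.1 FPKM and level with it in M1 + PBM at 96.1 ± 2.49.

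Of 17 inhibitor genes, 8 were higher and 5 lower in M1 than in M0 without overlap, beside 15.3% higher and 51.5% lower of all rows. Of 15 tested for PBM, 8 had a lower and 7 a higher estimate, with a median of -0.06, where 34.4% of all rows had a lower estimate. At an unadjusted limma p of at most 0.05, 1 passed lower and 1 higher, where 1.45% of all rows passed lower and 2.99% higher. Socs1, which binds JAKs and blocks them, had 0.145, 0.200 and 0.449 FPKM in M0, 16.3, 12.7 and 13.3 in M1, and 7.15, 8.78 and 7.40 in M1 + PBM. Again no groups overlapped and PBM lay between the others. The log2 fold change of Socs1 was -0.78 with an SE of 0.13 (limma, unadjusted p = 0.00073, adjusted p = 0.81), and the call held without any single library. Pias3, an inhibitor of Stat3, rose from 2.18 ± 0.18 to 2.92 ± 0.40 FPKM (log2 fold change 0.30, limma, unadjusted p = 0.031, adjusted p = 0.90). This call was lost with median-of-ratios scaling, with quantile normalization, and on leaving out M1 replicate 1 or 2 or M1 + PBM replicate 1 or 3. Socs3, which restrains receptors that signal through Stat3, was the most abundant inhibitor gene, at 243, 194 and 369 FPKM in M1 and 182, 178 and 221 in M1 + PBM (log2 fold change -0.43, limma, unadjusted p = 0.126, adjusted p = 0.90, and unadjusted p = 0.027 with the replicate block).

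The targets listed for each factor were set against M0, where 15.3% of all rows were higher in M1 and 51.5% lower without overlap. All 14 genes listed for Stat2, antiviral and interferon-induced genes, were higher in M1 than in M0 without overlap, as were 7 of the 9 listed for Stat3. Of the 7 listed for Stat5, 2 were higher, of which Cish was below 1 FPKM in every library, and 1 was lower. Of the 10 listed for Stat6, 1 was higher and 3 were lower, the latter a smaller share than over all rows, and the list summed to 7.97 to 31.3 FPKM in M1 and 14.4 to 15.6 in M1 + PBM against 47.4 to 80.3 in M0. Many of these genes have other regulators, and Socs3, Pim1, Osm, Il4ra, Cish, Socs2 and Usp18 stand on more than one list.

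For the PBM calls of the targets, the share of all rows at an unadjusted limma p of at most 0.05 was 4.44%, 1.45% lower and 2.99% higher. With the replicate block 988 of 12238 rows passed. A lower estimate was found in 34.4% of all rows. None of the 14 Stat2 targets passed with PBM, with or without the replicate block, and their median log2 fold change was -0.07. Rsad2, an antiviral enzyme and the most abundant of them, had 837 ± 228 FPKM in M1 and 659 ± 62.7 in M1 + PBM (log2 fold change -0.32, limma, unadjusted p = 0.175, adjusted p = 0.90). Of the 9 Stat3 targets, 7 had lower estimates, the median was -0.21, and 1 passed, or 3 with the replicate block. That gene was Tnfaip3, an inhibitor of NF-κB signalling, which fell from 45.4 ± 8.06 to 29.3 ± 7.89 FPKM (log2 fold change -0.63, limma, unadjusted p = 0.023, adjusted p = 0.90). Its call was lost without M1 replicate 3 or without M1 + PBM replicate 1 or 3. Of the 5 Stat5 targets tested, Osm alone passed, and with the replicate block 2 genes passed; Pim1, a survival kinase, was the most abundant, with 95.3 ± 18.6 FPKM in M1 and 82.3 ± 16.9 in M1 + PBM. Of the 3 Stat6 targets tested none passed, and Mrc1, the mannose receptor, was the most abundant, with 45.5 FPKM in M0, 8.21 ± 4.91 in M1 and 10.3 ± 2.23 in M1 + PBM.

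**Figure D5:**
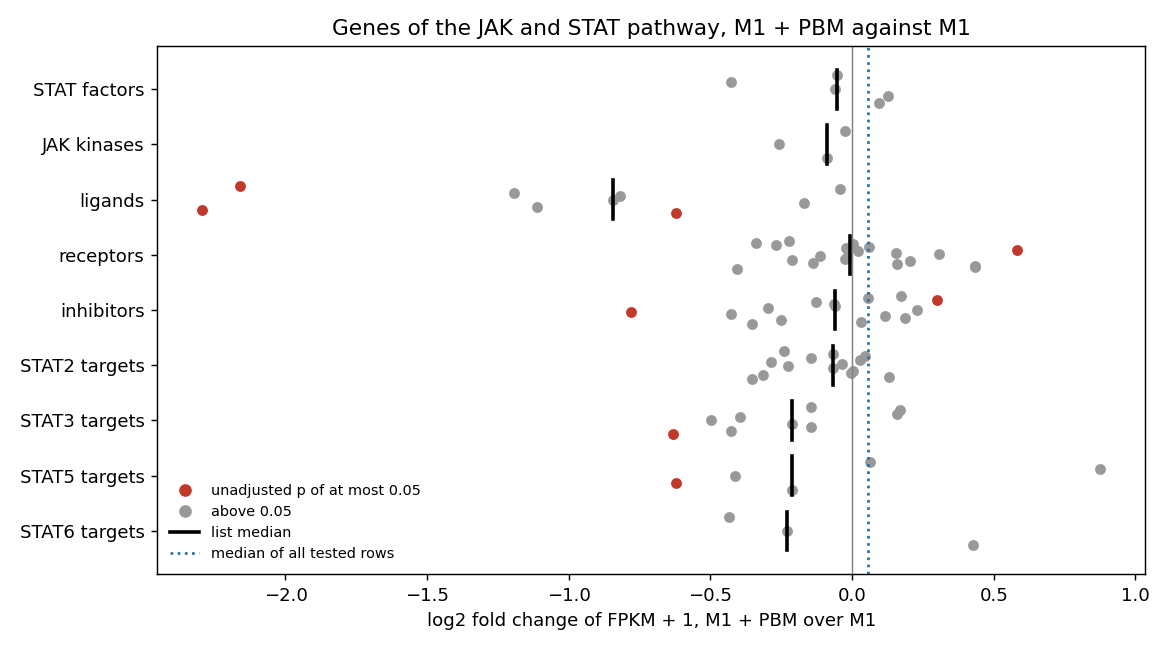
Log2 fold change of M1 + PBM over M1 for each tested gene of the STAT and JAK genes and of the pathway lists, in red where the unadjusted p was at most 0.05, with the median of each list as a black bar and that of all 12238 rows as a dotted line. All ligand genes lie left of 0, where Ebi3 moves to 0.018 after quantile normalization, and the STAT and JAK points cluster near it.

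Likeness of pattern was measured as Pearson's correlation of log2(FPKM + 1) over the 9 libraries, among 6167 rows with a mean FPKM of at least 5, for the 2 genes of smallest p. Jak2 was most like Trim21 (r = 0.999), Cd40 (r = 0.998) and March5 (r = 0.997). Stat3 was most like Stk40 (r = 0.995), Pttg1 (r = 0.994) and Tmem171 (r = 0.992). These values describe 9 libraries that differ mainly between M0 and the other groups, and many genes differ in that way.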

How the data were processed

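RNA of 9 cultures was extracted with TRIzol, made into strand-specific TruSeq libraries and sequenced. Expression was deposited as FPKM in 2 tables, of which 1 holds the 3 M0 libraries and 1 the remaining 6. The study's methods name Cufflinks for the expression values, and the submitters' processing notes name Bowtie 0.12.2 and mm9, without a role or order. Whether counting used the strand is not given in the sources used here. Of 55655 rows per table, 55154 were paired with a symbol of GENCODE M21, which was also used for overlaps and shared windows. Coordinates are printed only for RefSeq promoters (GRCm38.p6).

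M1 + PBM was compared with M1 in limma 3.58.1 (R 4.3.3; lmFit, eBayes with trend) on log2(FPKM + 1), with Benjamini-Hochberg adjustment over all 12238 rows that reached 1 FPKM in 3 or more libraries. For each gene an exact two-sided permutation test was added. The fit was tested on simulated data. Depth was estimated from the steps of low FPKM values in genes with a single transcript. Between 25.9% and 27.3% of these values were whole within 0.05 of a step, where an even spread would give 10%, so no reads were recovered and no counts were tested. The search for the depth kept to a preset range, since a step also fits at multiples of its depth. Depths outside that range were not considered. Upper limits on fragments use the longest transcript and these depth estimates.

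Groups and replicate numbers came from the labels. Deviations from the group means were compared across genes between M1 libraries and M1 + PBM libraries. They correlated for equal numbers (r = 0.157, 0.469 and 0.462), and the correlations lay between -0.491 and 0.0328 for different numbers. Deviations cancel out within a group, so the values for different numbers partly follow from those for equal numbers. The labels do not say that equal numbers are pairs. The pairing was taken from these correlations, and a fit with the replicate block was made as an alternative. Further alternatives were quantile normalization, median-of-ratios scaling, eBayes without trend, another pseudocount (0.1), other filters (none, or a mean of 5 FPKM or more) and the removal of 1 library at a time.

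The STAT and JAK genes, the pathway lists and the marker lists were chosen with earlier results of these data known. The text names all 9 genes, up to 4 genes of each pathway list with an unadjusted p of at most 0.05, the gene of each list with the highest mean FPKM, and the 3 rows most like each of the 2 genes of smallest p. Marker genes, Il4, Csf3r and the locus past the adjusted threshold were named after their values were seen.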

Additional observations from a re-analysis of the deposited data

How the results depend on the processing

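For M1 + PBM against M1, 94 of 104 recomputed log2 fold changes of the 8 tested STAT and JAK genes kept their direction and their side of an unadjusted p of 0.05, 8 changed sign and 2 passed. Quantile normalization gave 0.020 for Stat2 and 0.018 for Ebi3, and median-of-ratios scaling gave -0.075 for Csf2rb2. Leaving out a library gave -0.17 to 0.092 for Stat2, -0.13 to 0.024 for Stat5a, -0.070 to 0.030 for Jak1, -0.17 to 0.010 for Tyk2, -0.31 to 0.34 for Ebi3 and -0.22 to 0.18 for Csf2rb2. The number of the 8 genes that passed was then 0 to 1, the 1 being Stat3 without M1 replicate 2 and Jak2 without M1 + PBM replicate 2. Of all rows, 543 passed at an unadjusted p of 0.05, 1318 with no minimum FPKM, where more rows are tested, 233 at a mean FPKM of at least 5, where fewer are, and 252 to 1092 without a library. The thresholds of the methods were passed by 32 rows, by 75 with a pseudocount of 0.1 and by 27 to 89 without a library, the most without M1 + PBM replicate 2 (89) and M1 replicate 2 (67). The cause was not tested.

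With the replicate block, which pairs libraries of the same number, 988 rows passed at an unadjusted p of 0.05 and none of the 8 genes did, with p from 0.0735 for Stat3 to 0.742 for Jak1. Among the genes that the report names from the pathway and marker lists, the block changed the calls of Socs3 and of the neutrophil marker S100a8, which passed with it, and no other.

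Against M0, the number of the 9 genes lower without overlap in M1 was 1, 0 with median-of-ratios scaling and 1 to 3 without a library, and in M1 + PBM it was 2, 0 and 2 to 3. The log2 difference of Stat6 turned from -0.36 to 0.072 in M1 and from -0.26 to 0.077 in M1 + PBM with that scaling. The number higher was 6 under each of these settings. Over 13915 rows, median-of-ratios scaling moved the share lower without overlap from 50.6% to 28.1% in M1 and from 46.2% to 26.9% in M1 + PBM. The share higher moved from 15.6% to 28.9% and from 15.9% to 27.4%. Medians of all rows between M1 and M1 + PBM moved by less than 0.1 under every setting. FPKM of Stat4 rest on too few fragments to show a difference of moderate size, and 3 libraries a group limit the rest.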
